A study of Mus musculus with 15 samples.

Results

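The adenosine pathway was described from 5 genes in mouse MC38 tumours: Entpd1 (CD39), Nt5e (CD73), Ada (adenosine deaminase), Adora2a (the A2A receptor) and Adora2b (the A2B receptor). The rows were taken by gene symbol, and all 5 were found among 21851 genes listed. MC38 is a mouse colon adenocarcinoma line grown here as a tumour, and the labels give every sample as wild type. Bulk tumour RNA was sequenced from 15 tumours in 3 groups of 5. The first group had received an anti-PD-1 antibody, which blocks an inhibitory receptor on T cells, together with BG136, a soluble beta-glucan (the combination, BG136 plus anti-PD-1). The second had received the anti-PD-1 antibody alone, and the third the vehicle. The labels give intravenous injection for all 3 groups. Doses, times, and the strain and age of the animals are not given in the sources used here. Nothing in the labels says how the tumours were assigned to animals, so the p-values measure the spread between these samples.

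Extracellular ATP is released by stressed and dying cells and alerts immune cells. CD39 removes phosphates from ATP and ADP to give AMP, and CD73 turns AMP into adenosine. Adenosine is then taken up by transporters, deaminated to inosine by ADA, or bound by receptors. The A2A and A2B receptors couple to Gs and raise cyclic AMP, which restrains T cells and other leukocytes, and A2B needs more adenosine than A2A to respond.

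The starts of the genes are shown here because the results below turn on Entpd1 and Ada. RefSeq promoters (build GRCm38.p6, while the authors' build was GRCm39) matched 4 of the 5 genes, and Adora2a had none. The sequences are the 250 bases before each start, read 5′ to 3′ on the gene's strand, at chr19:40612116-40612365 and chr19:40659520-40659769 (plus strand) for the 2 starts of Entpd1 and chr2:163750240-163750489 (minus strand) for Ada. Capitals mark matches, on either strand, to letters that are reported to bind factors acting on these genes. TGACGTCA is the cyclic AMP response element. TGACG is the stretch with which that element begins, and so lies inside it. ACGTG is the core of the hypoxia response element, and GCGTG is another form of that core. GGGCGG is the GC box.
Entpd1 start 1: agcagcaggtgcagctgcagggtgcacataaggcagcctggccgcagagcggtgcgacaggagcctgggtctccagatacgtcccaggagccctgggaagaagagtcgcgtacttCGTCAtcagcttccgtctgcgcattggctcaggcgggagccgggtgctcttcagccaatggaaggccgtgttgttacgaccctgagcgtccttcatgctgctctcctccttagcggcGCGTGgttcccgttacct
Entpd1 start 2: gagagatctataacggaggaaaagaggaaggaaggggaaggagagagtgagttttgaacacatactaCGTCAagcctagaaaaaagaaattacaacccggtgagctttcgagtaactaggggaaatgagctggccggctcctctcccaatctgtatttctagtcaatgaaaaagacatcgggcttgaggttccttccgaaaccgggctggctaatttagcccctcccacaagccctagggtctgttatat
Ada: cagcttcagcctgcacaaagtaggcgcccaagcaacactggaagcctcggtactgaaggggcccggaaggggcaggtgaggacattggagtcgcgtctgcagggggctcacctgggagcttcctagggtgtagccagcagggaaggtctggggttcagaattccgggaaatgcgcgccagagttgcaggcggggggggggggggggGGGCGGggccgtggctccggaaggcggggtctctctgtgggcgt
Each Entpd1 start had 1 match to TGACG, on the reverse strand, the first start also had 1 match to GCGTG, and neither had GGGCGG. Ada had 1 match, to GGGCGG. Nt5e (chr9:88327359-88327608) had 4 matches to GGGCGG and 1 to GCGTG, and Adora2b (chr11:62248734-62248983) had 6 and 1. Of 32851 RefSeq promoter windows of this length, 17.8% held TGACG, 1.55% TGACGTCA, 16.6% ACGTG, 28.2% GCGTG and 32.7% GGGCGG. These matches are a description of the letters.

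Levels are taken to be in FPKM, a unit scaled by transcript length and library size. The table does not name its unit, which was read from its values and from the tools in the submitters' processing notes, and setting the levels of different genes beside each other rests on it. Over the 15 tumours Entpd1 averaged 20.1 FPKM, above 85.4% of the genes listed. Adora2b averaged 4.93 FPKM (above 64.1%), Ada 4.61 FPKM (63.3%) and Nt5e 2.74 FPKM (57.0%). Adora2a was lowest, at 0.967 FPKM (48.7%). Changes below are log2 differences of FPKM + 1 with their standard errors, which understate the change of low genes. They come from limma fitted on the 11311 genes that reached 1 FPKM in 5 or more tumours, with Benjamini-Hochberg adjustment over all of them and a threshold of 0.05. Adora2a reached 1 FPKM in 4 libraries, all of the BG136 plus anti-PD-1 group, and so was not tested in that fit. Replicates 3 and 5 of BG136 plus anti-PD-1 stood apart from the other 13 tumours in Ptprc, a gene of all leukocytes, with 63.7 and 75.9 FPKM, where the others had 17.6 to 39.7 FPKM. Calls against vehicle named below that ended or moved by over 1.5 times without them are given both ways.

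Among the 4 genes tested, Entpd1 and Ada rose in both treated groups relative to vehicle, and Nt5e and Adora2b passed in neither. In BG136 plus anti-PD-1 tumours against vehicle, 2 of 4 were higher and 0 lower, where 16.6% of all genes tested were higher and 23.9% lower (40.5% in all). In anti-PD-1 tumours against vehicle the count was again 2 higher and 0 lower, where 2.21% of all genes tested were higher and 3.34% lower. In the combination against anti-PD-1 alone, 0 of 4 passed limma's threshold, where 0.0619% of all genes tested did. At an unadjusted p under 0.05 that last count was 1 of 4, Entpd1, which was higher. The share of all genes tested at that unadjusted p was not counted. The median log2 change of all genes tested was -0.05, 0.01 and -0.05 in these 3 comparisons. The comparisons with vehicle share their 5 vehicle libraries.

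**Figure D1:**
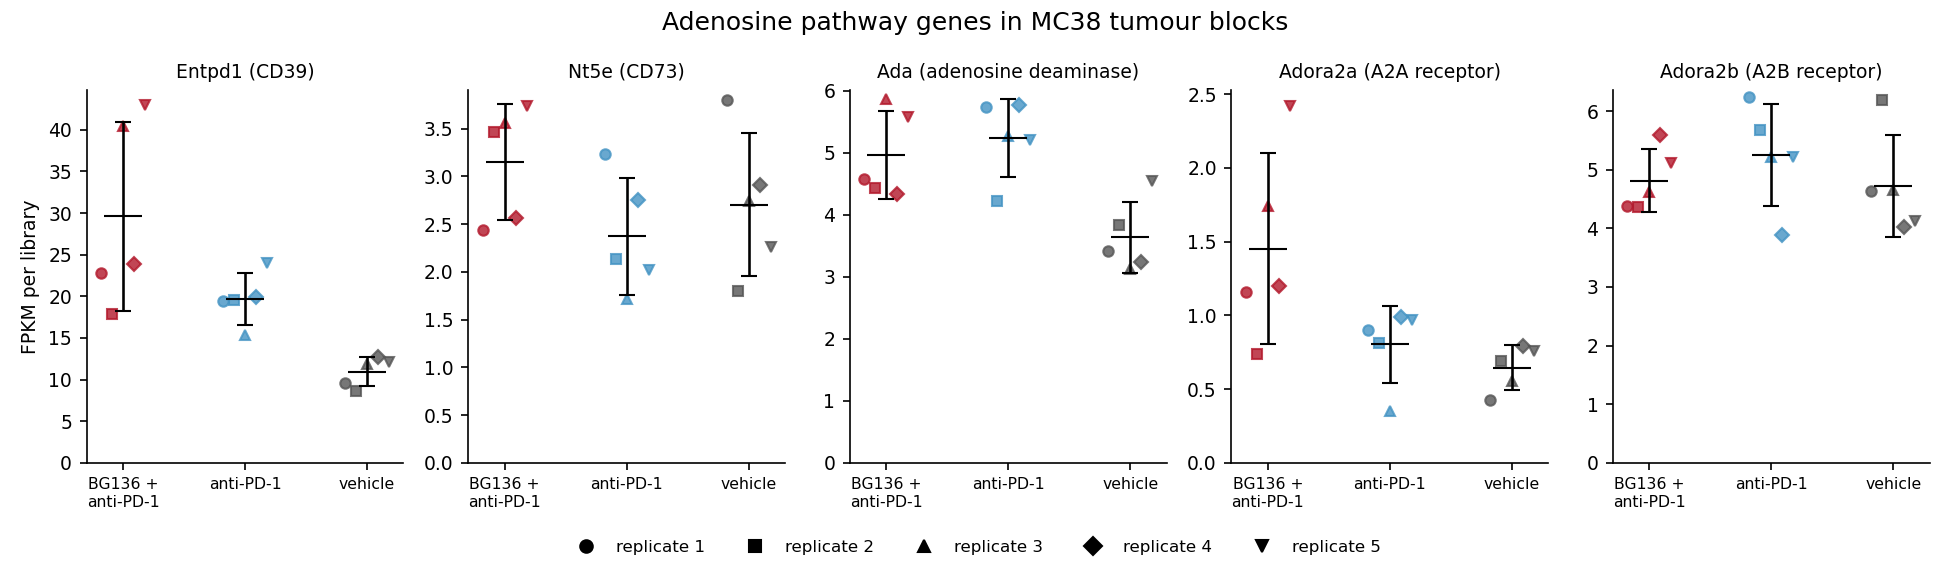
Levels of the 5 genes in FPKM (vertical axes, linear, from 0) in each of the 15 tumours, by group, with the mean and SD of 5 tumours. The BG136 plus anti-PD-1 and anti-PD-1 tumours sit above every vehicle tumour for Entpd1, while the groups overlap for Nt5e, Adora2a, Adora2b and Ada.

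Entpd1 encodes CD39, the enzyme that starts the path from ATP. It had 22.8, 17.8, 40.5, 23.9 and 43.0 FPKM in BG136 plus anti-PD-1 tumours (replicates 1 to 5), 19.4, 19.6, 15.3, 19.9 and 24.1 FPKM in anti-PD-1 tumours, and 9.60, 8.58, 11.8, 12.7 and 12.1 FPKM in vehicle tumours. The means were 29.6 ± 11.4, 19.7 ± 3.09 and 10.96 ± 1.76 FPKM (SD, n = 5 each). Every treated tumour was above every vehicle tumour, the treated groups overlapped, and replicates 3 and 5 of BG136 plus anti-PD-1 stood above all others. Such non-overlap upwards was shared by 9.38% of genes tested in BG136 plus anti-PD-1 against vehicle and by 7.09% in anti-PD-1 against vehicle. Relative to vehicle, Entpd1 rose by 1.29 ± 0.20 on the log2 scale in BG136 plus anti-PD-1 tumours (2.44-fold, 95% interval 0.85 to 1.73, limma adjusted p = 0.000425). In anti-PD-1 tumours it rose by 0.79 ± 0.20 (1.73-fold, interval 0.35 to 1.23, adjusted p = 0.0377). In a bulk sample, more cells of a type and more RNA per cell cannot be told apart.

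Between the treated groups, Entpd1 differed by 0.50 ± 0.20 on the log2 scale (interval 0.06 to 0.94), which did not pass (limma adjusted p = 0.139). Without replicate 2 of BG136 plus anti-PD-1, the lowest of its group, the difference was 0.66 and passed (adjusted p = 0.0307), and without replicates 3 and 5 together it was 0.13 (adjusted p = 0.725). The change in BG136 plus anti-PD-1 against vehicle was 0.92 without replicates 3 and 5 and still passed (adjusted p = 0.000809). The call in anti-PD-1 against vehicle was nearer the threshold. It ended when any 1 of anti-PD-1 replicates 1, 2, 4 and 5 or vehicle replicates 1, 2, 3 and 5 was left out, with changes of 0.71 to 0.83 and limma adjusted p of 0.0716 to 0.101. It held at adjusted p = 0.00224 when those groups were fitted alone, with no BG136 plus anti-PD-1 libraries.

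Nt5e encodes CD73, which makes adenosine from AMP. It had 2.44, 3.46, 3.56, 2.56 and 3.74 FPKM in BG136 plus anti-PD-1 tumours, 3.24, 2.14, 1.71, 2.75 and 2.02 FPKM in anti-PD-1 tumours, and 3.79, 1.80, 2.74, 2.91 and 2.26 FPKM in vehicle tumours. The 3 groups overlapped, and the highest tumour of all was a vehicle one. Against vehicle, the log2 difference was 0.18 ± 0.15 in BG136 plus anti-PD-1 tumours (interval -0.15 to 0.50, limma adjusted p = 0.367) and -0.13 ± 0.15 in anti-PD-1 tumours (interval -0.45 to 0.19, adjusted p = 0.652). The combination against anti-PD-1 alone gave 0.31 ± 0.15 (interval -0.02 to 0.63, adjusted p = 0.195). The ratio of Entpd1 to Nt5e within a tumour had a median of 9.36 in BG136 plus anti-PD-1 (5.15 to 11.5), 8.94 in anti-PD-1 (6.00 to 11.9) and 4.35 in vehicle tumours (2.53 to 5.35).

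Ada encodes adenosine deaminase, which removes adenosine by turning it into inosine. It had 4.58, 4.44, 5.87, 4.34 and 5.58 FPKM in BG136 plus anti-PD-1 tumours, 5.73, 4.22, 5.27, 5.76 and 5.21 FPKM in anti-PD-1 tumours, and 3.41, 3.83, 3.13, 3.24 and 4.55 FPKM in vehicle tumours. Vehicle replicate 5 was the one vehicle tumour that reached into the treated range, and the treated groups covered nearly the same range. Relative to vehicle, Ada rose by 0.36 ± 0.10 on the log2 scale in BG136 plus anti-PD-1 tumours (1.29-fold, interval 0.15 to 0.58, limma adjusted p = 0.0105) and by 0.43 ± 0.10 in anti-PD-1 tumours (1.35-fold, interval 0.22 to 0.64, adjusted p = 0.0231). The combination against anti-PD-1 alone gave -0.07 ± 0.10 (interval -0.28 to 0.14, adjusted p = 0.655). Without replicates 3 and 5 of BG136 plus anti-PD-1, the change against vehicle was 0.24 and no longer passed (adjusted p = 0.0873). The anti-PD-1 call ended without anti-PD-1 replicate 1, 4 or 5 or vehicle replicate 1 or 3 (0.39 to 0.43, adjusted p 0.0582 to 0.0676). The ratio of Ada to Entpd1 within a tumour had a median of 0.182 in BG136 plus anti-PD-1, 0.290 in anti-PD-1 and 0.355 in vehicle tumours.

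Adora2a encodes the A2A receptor, the higher-affinity of the 2 Gs-coupled adenosine receptors. It had 1.16, 0.741, 1.74, 1.20 and 2.42 FPKM in BG136 plus anti-PD-1 tumours, 0.903, 0.810, 0.355, 0.990 and 0.968 FPKM in anti-PD-1 tumours, and 0.427, 0.690, 0.552, 0.796 and 0.759 FPKM in vehicle tumours. Replicate 2 of BG136 plus anti-PD-1 lay within the ranges of the other groups, its other 4 tumours were above all tumours of both, and replicate 5 was highest. The log2 difference from vehicle was 0.54 in BG136 plus anti-PD-1 tumours and 0.13 in anti-PD-1 tumours, and the combination against anti-PD-1 alone gave 0.42. Exact two-sided permutation tests on the log2 values, 5 against 5, gave unadjusted p = 0.0238, 0.317 and 0.0635 for these differences, where the smallest possible is 0.00794. They are 3 of 15 such tests, over 5 genes and 3 comparisons. In a limma fit with no filter on low values the adjusted p were 0.0206, 0.729 and 0.171. Without replicates 3 and 5 of BG136 plus anti-PD-1 its difference from vehicle was 0.30.

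Adora2b encodes the A2B receptor. It had 4.37, 4.37, 4.61, 5.60 and 5.12 FPKM in BG136 plus anti-PD-1 tumours, 6.23, 5.68, 5.22, 3.89 and 5.21 FPKM in anti-PD-1 tumours, and 4.64, 6.19, 4.66, 4.02 and 4.13 FPKM in vehicle tumours. The 3 groups overlapped, and vehicle replicate 2 was as high as the top anti-PD-1 tumours. The log2 difference from vehicle was 0.03 ± 0.11 in BG136 plus anti-PD-1 tumours (interval -0.21 to 0.27, limma adjusted p = 0.853) and 0.13 ± 0.11 in anti-PD-1 tumours (interval -0.11 to 0.36, adjusted p = 0.532). The combination against anti-PD-1 alone gave -0.10 ± 0.11 (interval -0.33 to 0.14, adjusted p = 0.564). The ratio of Adora2b to Adora2a within a tumour had a median of 3.78 in BG136 plus anti-PD-1, 6.90 in anti-PD-1 and 8.43 in vehicle tumours. Of the other adenosine receptors, both Gi-coupled, neither was tested: Adora3 averaged 0.880 ± 0.343, 0.664 ± 0.193 and 0.375 ± 0.142 FPKM and Adora1 0.172 ± 0.115, 0.117 ± 0.0666 and 0.0531 ± 0.0657 FPKM in BG136 plus anti-PD-1, anti-PD-1 and vehicle tumours (SD, n = 5 each).

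**Figure D2:**
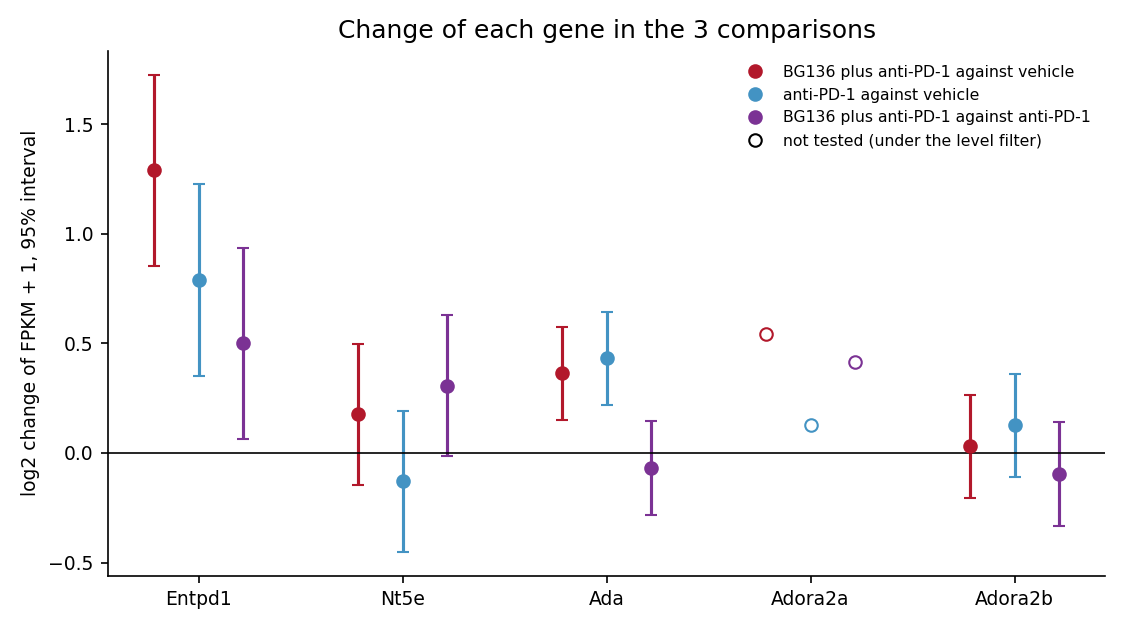
Log2 change of each gene (FPKM + 1) in each comparison, with 95% intervals from limma where the gene was tested. The intervals of Entpd1 and Ada against vehicle lie above 0 in both treated groups, and those of Nt5e and Adora2b span 0.

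Ptprc encodes CD45, carried by all leukocytes, and it moved with Entpd1. Ptprc had 39.7, 28.3, 63.7, 32.7 and 75.9 FPKM in BG136 plus anti-PD-1 tumours, 28.1, 32.3, 29.4, 28.8 and 32.3 FPKM in anti-PD-1 tumours, and 17.6, 18.3, 21.1, 19.0 and 21.4 FPKM in vehicle tumours. Replicates 3 and 5 of BG136 plus anti-PD-1, the tumours with most Entpd1, also had most Ptprc. Ptprc rose by 1.16 ± 0.20 on the log2 scale in BG136 plus anti-PD-1 against vehicle (limma adjusted p = 0.000762), and by 0.75 without replicates 3 and 5 (adjusted p = 0.000341). It was 0.61 ± 0.20 higher in anti-PD-1 tumours, which did not pass (adjusted p = 0.0956) but did without BG136 plus anti-PD-1 replicate 2 (adjusted p = 0.0484) or 5 (adjusted p = 0.0258). With anti-PD-1 and vehicle fitted alone Ptprc passed (limma adjusted p = 0.000621). The same held with weights per group (adjusted p = 0.00417) and without BG136 plus anti-PD-1 replicates 3 and 5 (adjusted p = 0.00140). Every anti-PD-1 tumour was above every vehicle tumour in Ptprc.

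Set against Ptprc within each tumour, Entpd1 had a median ratio of 0.630 in BG136 plus anti-PD-1 (0.567 to 0.729), 0.691 in anti-PD-1 (0.522 to 0.746) and 0.559 in vehicle tumours (0.469 to 0.666), so the 3 groups overlapped. The ratio of Adora2a to Ptprc was 0.0291, 0.03 and 0.0355 in the same groups, that of Ada 0.115, 0.179 and 0.193, that of Nt5e 0.0614, 0.0662 and 0.130, and that of Adora2b 0.110, 0.176 and 0.220. Set against Adgre1, a macrophage marker, Entpd1 had ratios of 0.28 to 0.368, 0.241 to 0.427 and 0.206 to 0.278 in the same order. Against Pecam1, an endothelial marker, they were 1.26 to 1.61, 1.22 to 2.18 and 1.08 to 1.24. In both, every BG136 plus anti-PD-1 tumour was above every vehicle tumour, by a narrow margin. The anti-PD-1 tumours overlapped the vehicle ones. With log2 Ptprc as a covariate, the change of Entpd1 against vehicle was 0.25 in BG136 plus anti-PD-1 (limma adjusted p = 0.373) and 0.25 in anti-PD-1 tumours (adjusted p = 0.197). That of Ada was 0.09 (adjusted p = 0.761) and 0.29 (adjusted p = 0.100), and that of Adora2a was -0.13 and -0.23, untested. Ptprc itself differs between the groups, so this covariate also takes up part of the difference between them. The part of leukocyte content in these results was not tested otherwise.

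**Figure D3:**
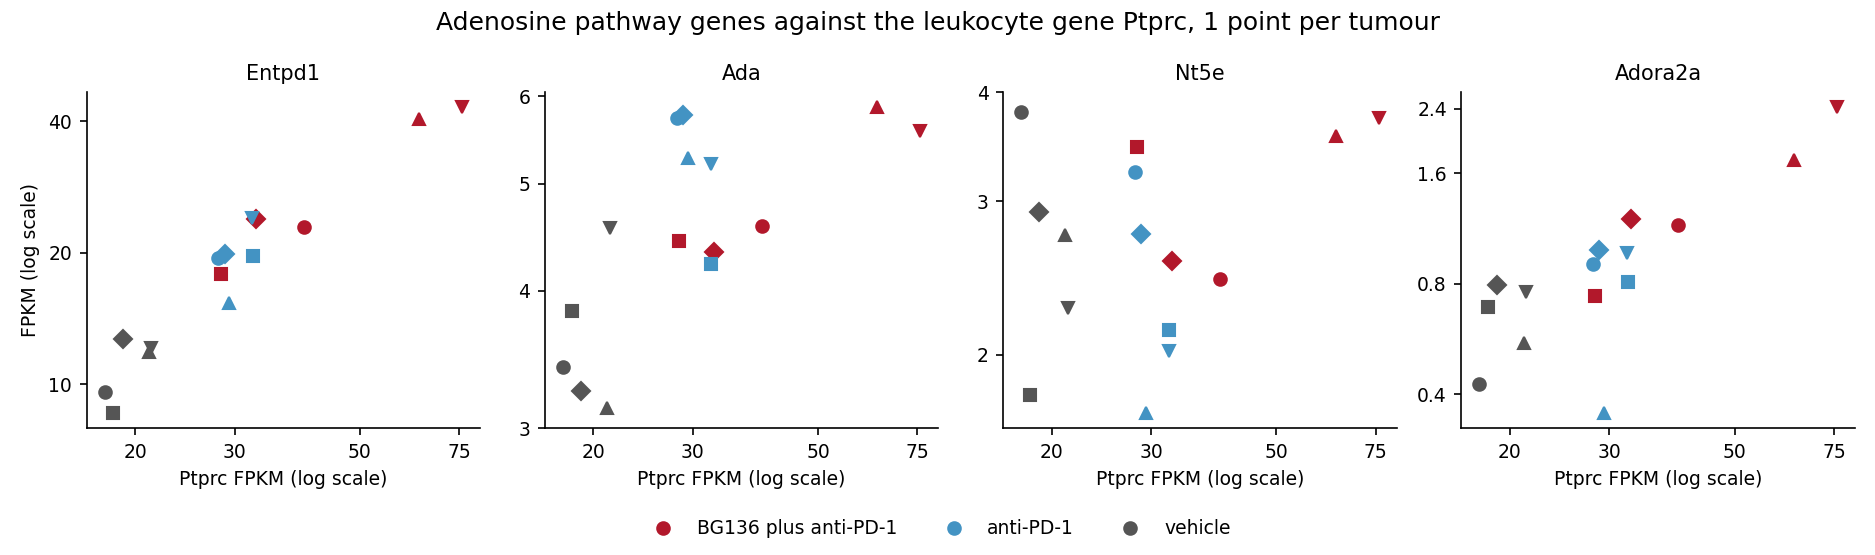
Levels of Entpd1, Ada, Nt5e and Adora2a against that of Ptprc (both in FPKM, log axes) in the 15 tumours, with a point per tumour, a colour per group and a marker shape per replicate number. Entpd1 is highest in replicates 3 and 5 of BG136 plus anti-PD-1, which have 63.7 and 75.9 FPKM of Ptprc.

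Markers of several leukocyte types and of endothelial cells, among them cells known to carry CD39, were higher too in BG136 plus anti-PD-1 tumours. In BG136 plus anti-PD-1 against vehicle, where 16.6% of all genes tested were higher, 6 of 7 macrophage markers, 6 of 6 T cell markers, 5 of 5 markers of exhausted T cells, 4 of 5 endothelial markers and 2 of 3 tested markers of regulatory T cells passed upwards. So did 4 of 4 mast cell and 3 of 3 tested neutrophil markers. Of the tested dendritic cell, epithelial and adipocyte markers, 1 of 4, 1 of 5 and 0 of 4 passed upwards. At an unadjusted p under 0.05 these 3 counts were 1, 4 and 3, all higher. In anti-PD-1 against vehicle, where 2.21% were higher, 2 of 6 T cell markers and 2 of 5 markers of exhausted T cells passed in limma, and 0 of the macrophage, endothelial, regulatory T cell, mast cell and neutrophil markers did. At an unadjusted p under 0.05 those last counts were 3 of 7 macrophage, 0 of 5 endothelial, 0 of 3 regulatory T cell, 3 of 4 mast cell and 2 of 3 neutrophil markers, all higher. No share of all genes was counted beside these unadjusted counts. Summed macrophage markers ranged over 1896 to 4496 FPKM in BG136 plus anti-PD-1, 1858 to 2224 in anti-PD-1 and 1282 to 1651 in vehicle tumours. Summed T cell markers ranged over 46.6 to 166, 32.3 to 48.7 and 15.1 to 30.4 FPKM, endothelial ones over 36.2 to 93.3, 30.9 to 46.6 and 25.3 to 36.4 FPKM, and those of regulatory T cells over 6.66 to 13.9, 3.20 to 7.34 and 4.44 to 5.80 FPKM in the same order. The sums of regulatory T cell markers were the smallest of these. Foxp3, their defining factor, averaged 0.802, 0.563 and 0.416 FPKM and was below the filter. Markers of fibroblasts, which carry CD73, moved both ways, with 2 of 5 higher and 1 lower, Pdgfra, which fell by 1.20 ± 0.12 on the log2 scale. Epithelial markers of the labelled carcinoma cells were low, summing to 2.98 to 27.6, 1.15 to 19.8 and 1.02 to 6.998 FPKM. The part of these cell types in the results was not tested.

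By Pearson correlation of log2 values over the 15 tumours, among 7663 genes ranked, the genes most like Entpd1 were Icam1 (r = 0.988, Spearman's rho = 0.993), an adhesion molecule, Cd86 (r = 0.986, rho = 0.971), a costimulatory ligand on antigen-presenting cells, and Fos (r = 0.982, rho = 0.932), an immediate-early transcription factor. After each group's mean was taken off, their r were 0.990, 0.979 and 0.936, and without the 2 tumours farthest in Entpd1 they were 0.985, 0.972 and 0.965. Ada was most like Tbk1 (r = 0.865), a kinase of innate sensing, Sema4b (r = 0.855) and Mafk (r = 0.796), and after group means were taken off these were 0.768, 0.561 and 0.380. Nt5e was most like Clec4n (r = 0.782), the lectin Dectin-2, Runx1 (r = 0.761) and Clec7a (r = 0.744), the beta-glucan receptor Dectin-1, and Adora2b was most like Ralb (r = 0.783), Dnpep (r = 0.731) and Ackr3 (r = 0.729). Without the 2 tumours farthest in the gene itself, r was 0.799, 0.829 and 0.696 for the genes like Ada, 0.865, 0.809 and 0.846 for those like Nt5e, and 0.754, 0.558 and 0.574 for those like Adora2b. These are the highest of 7663 values per gene from the same libraries, and they carry no p. The tumours share their cell mixture and scaling.

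Around these genes, a list of 66 other genes of ATP release, nucleotide breakdown, adenosine uptake, adenosine, P2X and P2Y receptors and cyclic AMP was described, of which 46 were tested. In BG136 plus anti-PD-1 against vehicle, 20 were higher and 8 lower (60.9%, where 40.5% of all genes tested were called), and their median log2 change was 0.17. In anti-PD-1 against vehicle 2 were higher and 2 lower (8.70%, where 5.55% of all genes were called), with a median of 0.08. In the combination against anti-PD-1 alone, 0 of 46 passed in limma and 14 had an unadjusted p under 0.05, 11 of them higher. The share of all genes at that unadjusted p was not counted, so the 14 are not read as particular to this list. Without replicate 2 of BG136 plus anti-PD-1, 13 of 46 (28.3%) passed in that last comparison, 12 of them higher, where 2222 of all 11297 genes then tested (19.7%) passed. In BG136 plus anti-PD-1 against vehicle, 17 of the 46 passed without replicates 3 and 5. The share of all genes in that fit is not set beside this count, so the 17 are not read as particular to this list. The anti-PD-1 count fell to 1 without anti-PD-1 replicate 1, 2 or 5 or vehicle replicate 1, 3 or 5, and to 2 without vehicle replicate 2. The count over all genes in that comparison also moved when 1 library was left out, as given at the end.

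Upstream of CD39, 2 of 3 tested channel genes tied to ATP release passed in BG136 plus anti-PD-1 against vehicle, in opposite directions. Of all genes tested in that comparison, 16.6% were higher and 23.9% lower. Gja1, connexin 43, averaged 56.9 ± 7.47 FPKM in BG136 plus anti-PD-1, 60.0 ± 7.48 in anti-PD-1 and 83.4 ± 10.3 in vehicle tumours (SD, n = 5 each), and fell by 0.55 ± 0.11 on the log2 scale in BG136 plus anti-PD-1 (limma adjusted p = 0.00173) and by 0.47 ± 0.11 in anti-PD-1 tumours (adjusted p = 0.0238) relative to vehicle. The anti-PD-1 call of Gja1 ended without anti-PD-1 replicate 1, 2 or 5 or vehicle replicate 1, 3 or 5 (adjusted p 0.0582 to 0.0703). Panx1, a pannexin channel, rose by 0.42 ± 0.12 in BG136 plus anti-PD-1 tumours (adjusted p = 0.0112), a call that ended without its replicates 3 and 5 (0.29, adjusted p = 0.0850). Of 3 other ectonucleotidases tested, 2 rose in BG136 plus anti-PD-1 against vehicle. Cd38, an ectoenzyme that splits NAD, had the larger change, 1.77 ± 0.29 (adjusted p = 0.000478), and averaged 20.6 ± 11.6, 10.5 ± 2.65 and 4.70 ± 0.885 FPKM in BG136 plus anti-PD-1, anti-PD-1 and vehicle tumours. In anti-PD-1 against vehicle Cd38 differed by 0.99 ± 0.29 (adjusted p = 0.0586), which passed without BG136 plus anti-PD-1 replicate 2, 3 or 5 or anti-PD-1 replicate 3 (0.0188 to 0.0484). Entpd2, a relative of CD39, rose by 1.03 ± 0.28 (adjusted p = 0.00976), and without replicates 3 and 5 of BG136 plus anti-PD-1 was at 0.75 (adjusted p = 0.0673). In anti-PD-1 against vehicle Entpd2 differed by 0.65 ± 0.28 (adjusted p = 0.184). It was low, at 2.50 ± 1.35, 1.69 ± 1.09 and 0.627 ± 0.253 FPKM in BG136 plus anti-PD-1, anti-PD-1 and vehicle tumours. It reached 1 FPKM in 4, 3 and 0 of them, so it passed the filter only through the treated groups.

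Of 11 tested genes listed under adenosine uptake and removal besides Ada, 5 were higher and 1 lower in BG136 plus anti-PD-1 against vehicle. Among all genes tested, 16.6% were higher and 23.9% lower. Not all of the 11 take up or remove adenosine: Ampd3 acts on AMP, and Ahcy releases adenosine. The higher ones were Slc28a2, Slc29a1, Ampd3, Pnp and Xdh, and the lower one was Adal. The concentrative transporter Slc28a2 averaged 5.69 ± 1.56, 4.40 ± 0.795 and 2.04 ± 0.395 FPKM in BG136 plus anti-PD-1, anti-PD-1 and vehicle tumours. It rose by 1.11 ± 0.16 on the log2 scale in BG136 plus anti-PD-1 (limma adjusted p = 0.000222) and by 0.83 ± 0.16 in anti-PD-1 tumours (adjusted p = 0.00986), and both calls held whichever single library was left out. The equilibrative transporter Slc29a1, at 28.7 ± 1.30, 26.7 ± 1.82 and 23.4 ± 0.900 FPKM, rose by 0.28 ± 0.05 in BG136 plus anti-PD-1 tumours (adjusted p = 0.000899). In anti-PD-1 tumours Slc29a1 differed by 0.18 ± 0.05 (adjusted p = 0.0534), and passed without BG136 plus anti-PD-1 replicate 4 or 5 or anti-PD-1 replicate 3 (0.0289 to 0.0476). Between the treated groups, Ahcy, which releases adenosine from S-adenosylhomocysteine, was at -0.29 ± 0.09 (adjusted p = 0.0945) and Ampd3, an AMP deaminase, at 0.37 ± 0.12 (adjusted p = 0.0995). Without replicate 2 of BG136 plus anti-PD-1 they were at -0.37 and 0.47 and passed (adjusted p = 0.0153 and 0.0196), where 19.7% of all genes passed. Without its replicates 3 and 5 they were at -0.16 and 0.15 (adjusted p = 0.402 and 0.466).

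In the P2X and P2Y receptor families, 1 of 3 and 4 of 6 genes tested were higher in BG136 plus anti-PD-1 against vehicle. None was lower. Among all genes tested, 16.6% were higher and 23.9% lower. P2ry10, 1 of the 4, was near the threshold, at 0.46 ± 0.18 on the log2 scale (limma adjusted p = 0.0489). Its call ended when any 1 of 13 libraries was left out, which were all but BG136 plus anti-PD-1 replicates 1 and 2 (0.32 to 0.51, adjusted p 0.0522 to 0.129), and without BG136 plus anti-PD-1 replicates 3 and 5 it was at 0.15 (adjusted p = 0.400). P2rx4, an ATP-gated channel, averaged 31.7 ± 13.1, 19.2 ± 1.02 and 15.1 ± 1.59 FPKM in BG136 plus anti-PD-1, anti-PD-1 and vehicle tumours and rose by 0.94 ± 0.19 against vehicle (adjusted p = 0.00182), and by 0.58 without replicates 3 and 5 (adjusted p = 0.00121). P2rx7, the ATP-gated channel tied to inflammasome activation, differed by 0.42 ± 0.18 (adjusted p = 0.0719), was at 0.09 without replicates 3 and 5 (adjusted p = 0.579), and passed without BG136 plus anti-PD-1 replicate 1, 2 or 4 (0.50 to 0.51, 0.0326 to 0.0448). P2ry14, a receptor for UDP-glucose, rose by 0.95 ± 0.22 (adjusted p = 0.00374), and by 0.60 without replicates 3 and 5 (adjusted p = 0.0252). P2ry2, a receptor for ATP and UTP, rose by 0.47 ± 0.12 (adjusted p = 0.00591). It was low, at 1.77 ± 0.501, 1.43 ± 0.259 and 0.986 ± 0.230 FPKM in BG136 plus anti-PD-1, anti-PD-1 and vehicle tumours. It reached 1 FPKM in 5, 5 and 1 of them, so it passed the filter through the treated groups. P2rx4, P2rx7, P2ry14 and P2ry2 did not pass in anti-PD-1 tumours, with differences of 0.33, 0.05, 0.48 and 0.29. With those groups fitted alone, P2rx4 and P2ry14 passed (limma adjusted p = 0.00746 and 0.0327). With weights per group, which allow the wider spread of BG136 plus anti-PD-1, P2ry14 and P2ry2 passed (adjusted p = 0.0382 and 0.0388). P2rx7 passed in neither. Between the treated groups P2ry10 was at 0.45 ± 0.18 (adjusted p = 0.132), and at 0.61 without replicate 2 of BG136 plus anti-PD-1 (adjusted p = 0.0210), where 19.7% of all genes passed. Without replicates 3 and 5 that difference was 0.14 (adjusted p = 0.669).

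**Figure D4:**
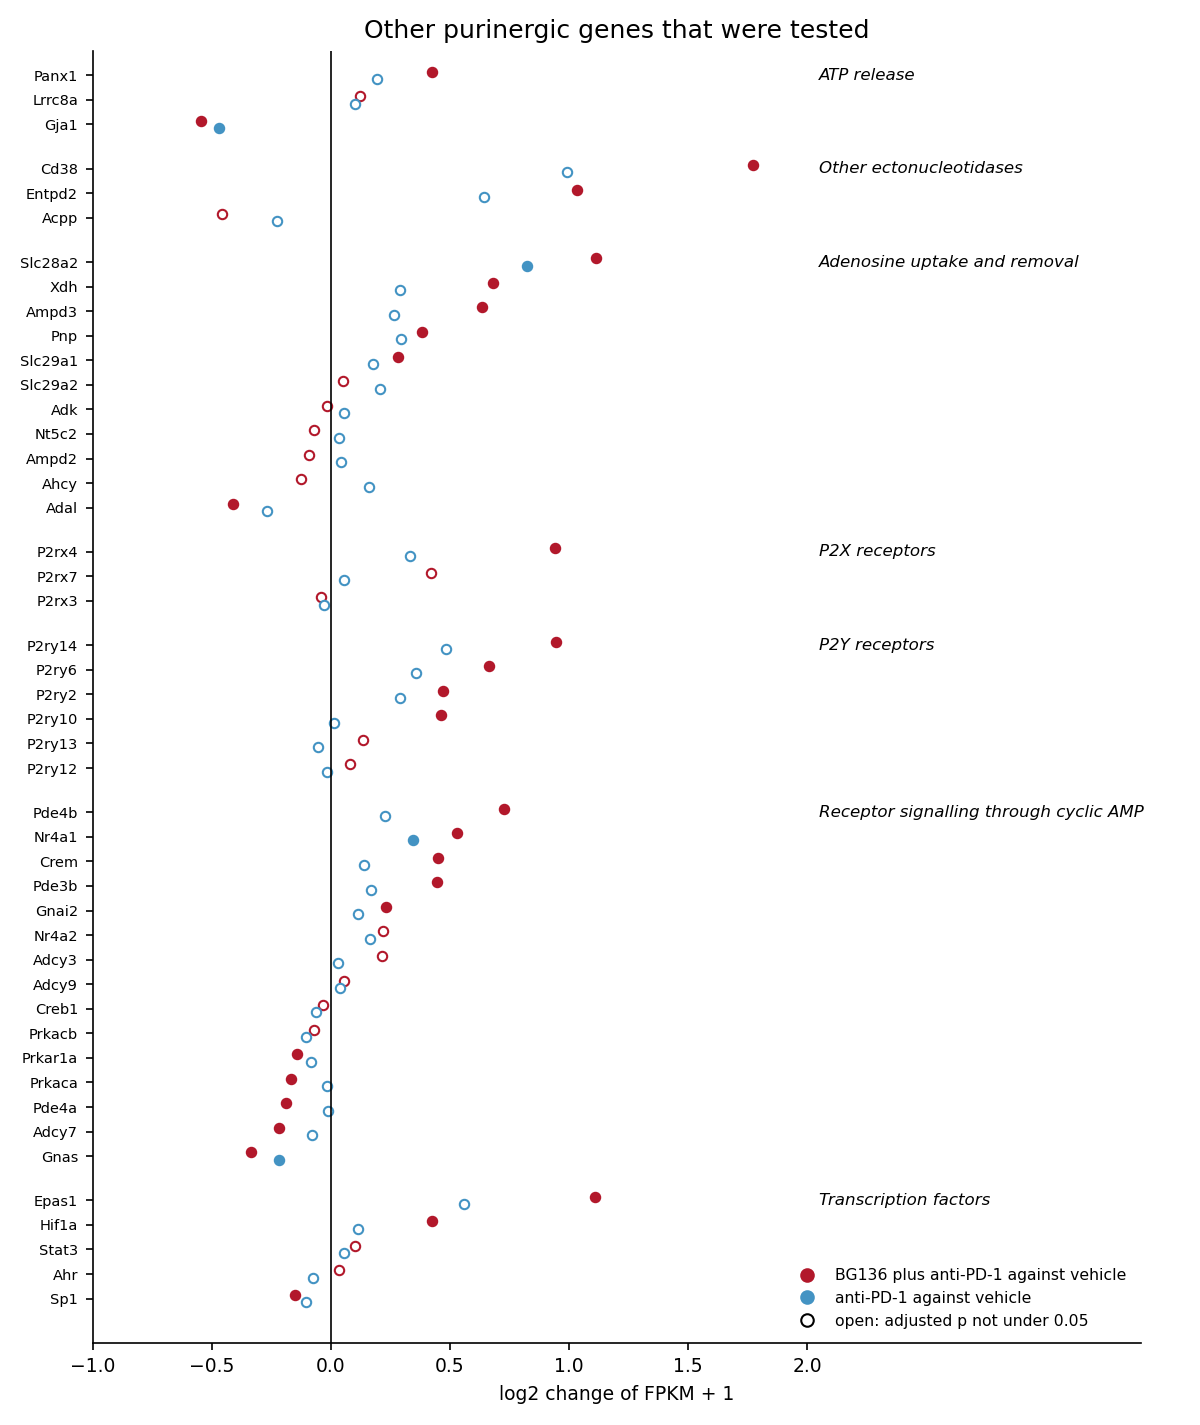
Log2 change of the 46 other purinergic genes tested, by role, for BG136 plus anti-PD-1 and anti-PD-1 against vehicle, with filled points for genes past the limma threshold. The 20 higher and 8 lower calls in BG136 plus anti-PD-1 are spread over all 7 roles with a tested gene.

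Downstream of the A2A and A2B receptors, 5 of 15 genes of cyclic AMP signalling tested were higher and 5 lower in BG136 plus anti-PD-1 against vehicle. Among all genes tested, 16.6% were higher and 23.9% lower, so these counts are not read as particular to this role. Nr4a1, an early-response nuclear receptor that cyclic AMP and antigen receptors induce, averaged 3.15 ± 0.389, 2.66 ± 0.377 and 1.88 ± 0.260 FPKM in BG136 plus anti-PD-1, anti-PD-1 and vehicle tumours. Nr4a1 rose by 0.53 ± 0.09 on the log2 scale in BG136 plus anti-PD-1 (limma adjusted p = 0.000562) and by 0.35 ± 0.09 in anti-PD-1 tumours (adjusted p = 0.0359). Gnas, the Gs alpha subunit, averaged 60.3 ± 5.53, 65.4 ± 3.58 and 76.1 ± 2.24 FPKM, and fell by 0.34 ± 0.06 (adjusted p = 0.000769) and by 0.22 ± 0.06 (adjusted p = 0.0458) in the same comparisons. The anti-PD-1 call of Nr4a1 ended without anti-PD-1 replicate 1, 2 or 5 or vehicle replicate 1, 2, 3 or 5 (adjusted p 0.0558 to 0.0967), and that of Gnas without any 1 of 11 libraries, which were all but anti-PD-1 replicate 3 and BG136 plus anti-PD-1 replicates 2, 4 and 5 (0.0501 to 0.125). Between the treated groups the phosphodiesterases Pde4b and Pde4a, which break down cyclic AMP, were at 0.50 ± 0.16 (adjusted p = 0.0980) and -0.18 ± 0.06 (adjusted p = 0.107). Without replicate 2 of BG136 plus anti-PD-1, where 19.7% of all genes passed, Pde4b was at 0.58 and passed (adjusted p = 0.0299). Without its replicates 3 and 5, Pde4b and Pde4a were at 0.21 and -0.17 (adjusted p = 0.426 and 0.360). Of 5 transcription factors reported to act on the adenosine genes, 2 were higher and 1 lower in BG136 plus anti-PD-1 against vehicle. The hypoxia-inducible factor genes Epas1 and Hif1a rose by 1.11 ± 0.23 (adjusted p = 0.00197) and 0.43 ± 0.13 (adjusted p = 0.0159). Without replicates 3 and 5 Epas1 was at 0.73 (adjusted p = 0.00889), and the Hif1a call ended (0.17, adjusted p = 0.0743). The 5 hypoxia markers summed to 90.7 to 232, 140 to 179 and 127 to 200 FPKM in BG136 plus anti-PD-1, anti-PD-1 and vehicle tumours, so the groups overlapped.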

How the data were processed

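Tumour RNA was extracted and made into stranded mRNA libraries, per the labels' protocols. The authors deposited 1 value per gene for all 15 libraries, taken here to be FPKM. The header does not name the unit. It was read from the values, whose sums differ between libraries, and from the tools named. The submitters' processing notes name Trimmomatic, HISAT2, Cufflinks, HTSeq and DESeq and the build GRCm39, with no versions. Gene symbols that a spreadsheet had turned into dates (27 of 21878 entries, at most 0.168% of a library's sum) were left out. FPKM sums were 377509 to 424899 per library. Read totals are not given in the sources used here, so no counting interval is given. The spacing of the lowest values put relative depth at 0.832 to 1.07 of vehicle replicate 1 in 13 of 14 libraries, and BG136 plus anti-PD-1 replicate 4 showed no clear spacing.

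Log2(FPKM + 1) values were fitted in limma 3.58.1 (R 4.3.3) with 3 group means over all 15 libraries, an intensity trend and Benjamini-Hochberg adjustment. The pseudocount was 1, the filter at least 1 FPKM in at least 5 libraries, and the threshold an adjusted p of 0.05. Exact two-sided permutation tests were run for the 5 genes. The genes and lists were chosen with earlier results of these data known. In the wider list, the named genes are the 2 lowest p of each role and comparison, and the correlated genes are the 3 highest Pearson r per gene. Alternatives covered the pseudocount, filter, scaling, groups fitted, weights, replicate block, Ptprc as a covariate, and leaving out libraries.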

Additional observations from a re-analysis of the deposited data

Results flagged for a closer look

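In 43 genes named or used as markers, each group of 5 tumours was examined for a tumour far from the other 4, by a gap to its nearest neighbour above 0.71 of the group's range. This marked 6 of 129 groups, and chance marks about 1 in 20. Among the adenosine genes it marked Adora2a in anti-PD-1 tumours, where replicate 3 was lowest at 0.355 FPKM and the others had 0.810 to 0.990 FPKM. P2ry2 in BG136 plus anti-PD-1 tumours was highest in replicate 3, at 2.63 FPKM against 1.31 to 1.67 in the others. Ampd3 in vehicle tumours was lowest in replicate 5, at 0.705 FPKM against 0.971 to 1.06.

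Among markers and correlated genes, Cd8a was highest in BG136 plus anti-PD-1 replicate 5, at 32.0 FPKM against 10.2 to 16.3 FPKM in the others. Clec4n was highest in the same tumour, at 49.0 FPKM against 18.7 to 26.4. BG136 plus anti-PD-1 replicate 4 was highest for Dnpep, at 21.0 FPKM against 15.7 to 16.8.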

How the results depend on the processing

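Values are log2 changes or counts of genes past the limma threshold. Against vehicle, the Entpd1 call in BG136 plus anti-PD-1 ended in 1 of 27 alternatives and the Ada call in 2, and no alternative made a call for Nt5e or Adora2b. With Ptprc as a covariate, Entpd1 was at 0.25 in BG136 plus anti-PD-1 and 0.25 in anti-PD-1, Ada at 0.0905 and 0.29, and Adora2a at -0.13 and -0.23, against vehicle, with Adora2a at 0.093 between the treated groups. Under it P2rx4 (-0.0671), P2ry14 (-0.10), P2ry10 (-0.34), Pde4b (-0.0226) and Hif1a (-0.18) turned round in BG136 plus anti-PD-1 and P2rx7 (-0.42, which passed) in anti-PD-1. Of the other changes against vehicle, none past the threshold, it also put P2rx7 (-0.48) below 0 and Ahcy (0.22) above 0 in BG136 plus anti-PD-1, and P2rx4 (-0.20), P2ry10 (-0.40), P2ry14 (-0.0628), Pde4b (-0.16), Hif1a (-0.20), Panx1 (-0.0168) and Ampd3 (-0.0258) below 0 in anti-PD-1. With that covariate the calls of Cd38, Entpd2, Slc28a2, Slc29a1, Gja1 and Panx1 ended in BG136 plus anti-PD-1, their signs kept. So did those of Ampd3, P2ry2, Nr4a1, Gnas, Pde4a and Epas1. In anti-PD-1 the calls of Gja1, Nr4a1 and Gnas ended, and that of Slc28a2 held. The Pdgfra calls held in both. Without BG136 plus anti-PD-1 replicates 3 and 5, Ada was at 0.24. With no filter, Entpd1 in anti-PD-1 (0.79, adjusted p = 0.0632) lost its call, and Adora2a in BG136 plus anti-PD-1 (0.54) passed. The exact permutation p of Adora2a was also under 0.05 there, but it was unadjusted. Leaving out 1 library gave Entpd1 0.71 to 0.87 and Ada 0.39 to 0.50 in anti-PD-1 against vehicle, Entpd1 0.35 to 0.66 between the treated groups, and Adora2b -0.0172 to 0.11 in BG136 plus anti-PD-1 against vehicle. The cause of these changes was not tested. With weights per group, which allow the wider spread of BG136 plus anti-PD-1, Entpd1 and Ada kept their calls against vehicle in both treated groups. The filter at 5 FPKM left Nt5e and Adora2a with no value.

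Among all genes, the count in BG136 plus anti-PD-1 against vehicle was 4578, and 1122 with the Ptprc covariate. In anti-PD-1 against vehicle it was 628, and 2269 with weights per group, 1482 with the Ptprc covariate, 2061 with those groups alone, 1792 without BG136 plus anti-PD-1 replicates 3 and 5, and 223 to 1129 without 1 library. Quantile scaling made 29.6% of these calls higher, against 39.8%. Between the treated groups it was 7, and 24 with the filter at 5 FPKM, 0 with either scaling, weights, the Ptprc covariate, those groups alone or without replicates 3 and 5, and 0 to 2222 without 1 library, the 2222 without BG136 plus anti-PD-1 replicate 2. Of the other purinergic genes, 28 in BG136 plus anti-PD-1 became 17 at 5 FPKM, where fewer of them were tested, 3 with the covariate and 17 without replicates 3 and 5. The 4 in anti-PD-1 became 2 with no filter, 13 with weights, 16 with those groups alone, 12 without replicates 3 and 5 and 1 to 6 without 1 library, and the 0 between treated groups became 0 to 13.

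Replicate numbers did not pair the tumours: same-numbered tumours correlated at -0.388 to 0.293 in their deviations from group means, and 2, 0 and 0 of 10 tumours correlated best with their own number in the 3 comparisons. With a replicate block the counts of all genes were 4263, 347 and 0, those of the other purinergic genes 26, 2 and 0, and no call among the 5 genes changed.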
